A study of Mus musculus with 6 samples.

Results

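The genes described here encode the machinery with which a nerve terminal stores and releases neurotransmitter. They comprise 36 genes chosen by name, namely 10 vesicle proteins, 10 SNARE proteins and their partners, 6 calcium sensors, 5 active zone proteins and 5 endocytosis proteins. All 36 had at least 1 probe set with a single gene symbol, among 18193 genes measured in this way, and each gene is represented by its brightest probe set over the 6 arrays. No filter on low values was applied, so all members were tested.

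Hippocampal RNA was hybridised to Affymetrix mouse expression arrays, with 1 animal named for each array. IκBα-deficient animals (IκBαfl/-;Nestin-Cre, n = 3) were set against littermate controls (IκBαfl/-, n = 3), and all animals were 2 to 3 months old. Both groups carry 1 null and 1 floxed allele of the IκBα gene, so the controls already have a reduced gene dose, and only the deficient animals carry Nestin-Cre, which recombines the floxed allele in the neural lineage that forms neurons, astrocytes and oligodendrocytes. Microglia and blood vessels do not derive from that lineage. The labels name each array as a biological repeat.

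Synaptic vesicles are loaded with transmitter, held near the membrane by synapsins, docked and primed at the active zone, and fused when calcium binds synaptotagmins and the SNARE proteins of vesicle and plasma membrane zip together. The ATPase NSF and its SNAP adaptors then pull the SNARE complexes apart, and vesicle membrane is retrieved by dynamin- and clathrin-dependent endocytosis. In the hippocampus these proteins are abundant in the terminals of pyramidal cells, dentate granule cells and interneurons. IκBα holds NF-κB transcription factors in the cytoplasm, and the comparison asks which hippocampal transcripts differ when it is lost.

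Values are RMA values on the log2 scale, in which 1 unit is a doubling. Nfkbia, the gene of IκBα itself, had values of 9.06, 9.13 and 8.66 on the deficient arrays, against 10.39, 10.35 and 10.31 on the control arrays, a difference of -1.40 ± 0.12 (SE) and its adjusted p was 0.057 by limma, with the Benjamini-Hochberg adjustment running over all 18193 genes. Its groups did not overlap. These values are from the brightest of 5 Nfkbia probe sets, whose adjusted p among 34945 single-symbol probe sets was 0.047 (limma). The others differed by -1.77 (adjusted p = 0.00125), -1.74 (0.00483), -1.83 (0.0330) and -0.35 (0.985) in the same limma fit. Array medians lay between 6.08 and 6.13, and every member lay above the array median on all 6 arrays. A list of 13 markers of CA1, CA3 and dentate neurons averaged 9.47 to 9.55 on the deficient arrays, against 9.54 to 9.68 on controls. These means lay above the array medians, so the labelled tissue was represented in every sample. The markers were lower in the deficient group for 12 of 13, beside 47.4% of all genes. Whether the samples held equal shares of these neurons was not tested. Arrays stood apart in the following respects. IκBα-deficient array 2 had a mean gap of 2.02 between 3′ and 5′ control probe sets of Gapdh and β-actin, against 0.556 to 0.725 on the other 5 arrays. The mean over 14 measured choroid plexus markers was 8.56, 7.97 and 7.62 on the deficient arrays, against 7.73, 5.79 and 5.76 on the control arrays, so control array 1 stood with the deficient arrays. Meningeal markers were higher for 12 of 12, with means of 7.83, 8.84 and 7.79 on the deficient arrays and 7.70, 7.86 and 7.16 on the control arrays. Only deficient array 2 lay above all controls there.

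As a module, the presynaptic genes lay close to the control level in IκBα-deficient hippocampus. Of 36 members, 11 were higher and 25 lower, with a median difference of -0.02 on the log2 scale and a range of -0.20 to 0.34. Of the members 69.4% were thus lower, beside 47.4% of all 18193 genes, of which 52.6% were higher and whose median difference was 0.006. None of the members passed an adjusted p of 0.05, and 0 had an unadjusted p under 0.05 (limma), where 0% and 4.71% of all genes did (3.33% higher and 1.39% lower). The difference was larger than its SE in 13 of 36 members and larger than 2 SE in 1, Syn1. The same counts were not made over all genes, so nothing particular to the members is read from them. The count of lower members was 25 of 36 without deficient array 2 and 24 of 36 without both that array and control array 1. It was 11 of 36, with a median of 0.03, when each array was centred on 16 pan-neuronal markers, a scaling under which 25.3% of all genes were lower. Neuron number, RNA per neuron and the share of other tissue in a sample cannot be told apart in such bulk tissue. The pan-neuronal list averaged 12.21, 12.12 and 12.25 on the deficient arrays, against 12.27, 12.21 and 12.25 on the control arrays, and its part in the members' values was not tested.

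The precision can be read from the intervals. The 95% interval of the difference (moderated, unadjusted) stayed within 1.5-fold in either direction for 33 of 36 members, or 91.7%, and for 96.8% of all genes. The 3 exceptions were Slc17a6, Syt5 and Doc2a. The median SD of a member was 0.08 on the deficient arrays and 0.03 on the control arrays, beside 0.10 and 0.08 over all genes.

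**Figure D1:**
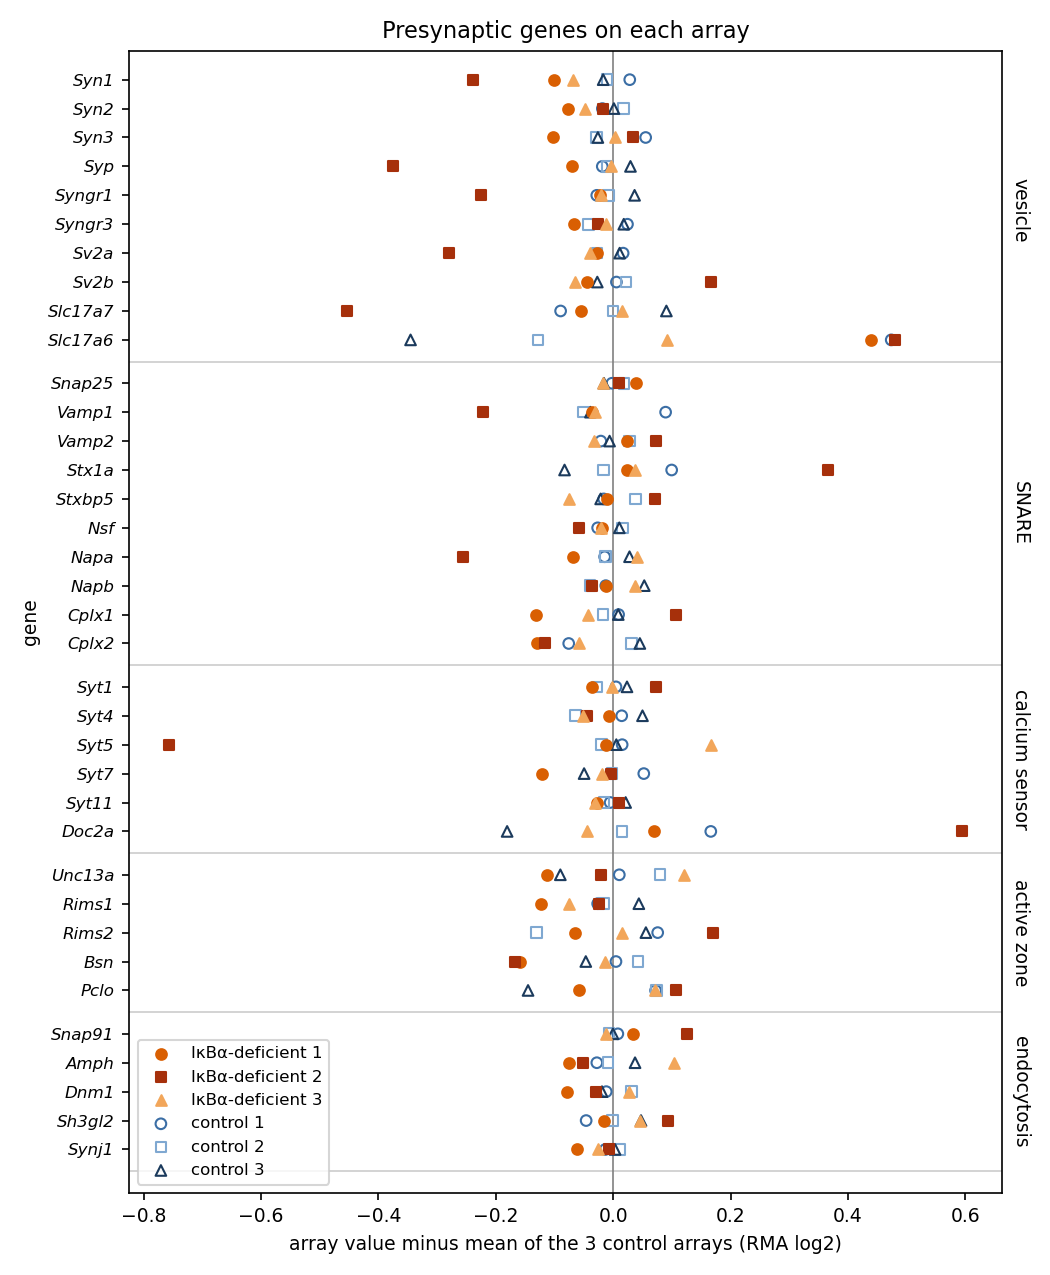
Value of each presynaptic gene on each array minus the mean of the 3 control arrays (horizontal axis, RMA log2), with genes down the page grouped by role, filled symbols for IκBα-deficient arrays and open symbols for control arrays. Most points lie within 0.1 of 0, and the widest departures, down to -0.76 for Syt5 and up to 0.59 for Doc2a, belong to IκBα-deficient array 2.

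Because IκBα restrains NF-κB, promoters of the members were searched for the NF-κB consensus, a motif of 10 bases, on both strands. Windows of 300 bases, from 250 before to 50 after the annotated start, came from RefSeq (GRCm38.p6) and were found for 27 of the 36 members. The consensus was present in 2 of them, Cplx2 and Sh3gl2, or 7.41%, against 9.55% of 27025 genes with a promoter in the table. The cyclic AMP response element TGACGTCA, bound by CREB family factors, was present in 3 of 27, namely Syn1, Napa and Sh3gl2 (11.1%, against 2.03% of all genes). Sh3gl2 thus held both motifs. The 250 bases before the start are shown for the members with an NF-κB match and for Syn1, the member with the smallest p. Capitals mark the motifs, and in Cplx2 a pair of overlapping NF-κB matches forms 1 run.
Syn1 promoter (chrX:20920919-20921168, minus strand): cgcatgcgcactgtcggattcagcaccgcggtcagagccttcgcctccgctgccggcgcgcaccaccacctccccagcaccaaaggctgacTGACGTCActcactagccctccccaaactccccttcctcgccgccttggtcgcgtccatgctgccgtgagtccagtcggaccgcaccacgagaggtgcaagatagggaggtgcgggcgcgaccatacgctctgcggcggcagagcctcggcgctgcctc
Cplx2 promoter (chr13:54302306-54302555, plus strand): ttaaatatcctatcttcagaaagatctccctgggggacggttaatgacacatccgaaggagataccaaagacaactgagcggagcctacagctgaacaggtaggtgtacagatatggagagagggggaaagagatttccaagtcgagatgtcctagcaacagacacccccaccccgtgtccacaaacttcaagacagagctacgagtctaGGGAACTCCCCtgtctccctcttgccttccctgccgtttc
Sh3gl2 promoter (chr4:85205206-85205455, plus strand): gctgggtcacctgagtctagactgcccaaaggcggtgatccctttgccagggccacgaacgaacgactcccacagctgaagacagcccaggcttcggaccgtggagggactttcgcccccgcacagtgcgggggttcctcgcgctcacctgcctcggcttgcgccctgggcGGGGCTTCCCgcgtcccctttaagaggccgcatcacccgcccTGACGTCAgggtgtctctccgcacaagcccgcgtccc
In Syn1 the element begins 159 bases before the start. In Cplx2 the NF-κB matches begin 40 and 39 bases before it, and in Sh3gl2 the NF-κB match begins 79 and the cyclic AMP element 37 bases before it. The arrays do not measure binding, and a match in these windows is a description of the sequence only.

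Vesicle proteins leaned lower, with 8 of 10 below and 2 above the control level, a median difference of -0.07 and 0 passing the test. Without deficient array 2, 9 of 10 were lower and the median was -0.04, beside 52% of all genes lower. With array weights and with each of the 3 covariates 9 of 10 were lower too, beside 46.6% to 52.2% of all genes. With arrays centred on pan-neuronal markers 5 of 10 were higher and 5 lower, with a median of -0.01, beside 25.3% of all genes lower. Syn1, synapsin I, which tethers vesicles to actin and to each other, had values of 11.31, 11.17 and 11.34 on the deficient arrays, against 11.43, 11.40 and 11.39 on the control arrays. All 3 deficient arrays lay below all controls. The difference was -0.14 ± 0.07 (SE), with a 95% interval of -0.29 to 0.02 and an adjusted p of 0.963, and it was -0.08 without deficient array 2. Its promoter, shown above, holds the cyclic AMP element, as does that of Sh3gl2. The related synapsins Syn2 and Syn3 had overlapping groups, with differences of -0.05 and -0.02.

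Sv2a, the vesicle glycoprotein that binds the antiepileptic drug levetiracetam, was the other member without overlap. Its values were 11.43, 11.18 and 11.42 on the deficient arrays, against 11.47, 11.43 and 11.47 on the control arrays. Deficient array 1 and control array 2 were level to 2 decimals, so the separation is thin. The difference was -0.12 ± 0.08 (SE, adjusted p = 0.963), and it was -0.03 without deficient array 2. Groups failed to overlap for 2 of 36 members (5.56%), against 9.76% of all genes, and both were lower, a direction that held for 3.82% of all genes, while 5.94% were separate and higher. Its paralogue Sv2b differed by 0.02.

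Syp, synaptophysin, an abundant vesicle membrane protein, was at 11.69, 11.38 and 11.75 on the deficient arrays, against 11.74, 11.75 and 11.79 on the control arrays. Only deficient array 2 lay well below the rest. The difference of -0.15 ± 0.10 (SE, adjusted p = 0.963) was -0.04 without that array. Syngr1 and Syngr3, synaptogyrins of the same membrane protein family, differed by -0.09 and -0.03, and Syngr1 by -0.02 without deficient array 2.

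The vesicular glutamate transporters differed in opposite directions. Slc17a7, the transporter of hippocampal pyramidal and granule cells, was at 10.40, 9.998 and 10.47 on the deficient arrays, against 10.36, 10.45 and 10.54 on the control arrays. The groups overlapped, and the difference of -0.17 ± 0.12 (SE, adjusted p = 0.963) was -0.02 without deficient array 2. Slc17a6, the transporter typical of thalamic and other subcortical glutamatergic neurons, was at 9.72, 9.76 and 9.37 on the deficient arrays, against 9.76, 9.15 and 8.94 on the control arrays. Control array 1 was as high as the deficient arrays, so the groups overlapped. Its difference of 0.34 ± 0.20 (SE), or 1.26-fold, was the widest of all members, with a 95% interval of -0.14 to 0.81 and an adjusted p of 0.963. A second probe set of Slc17a6 was at 7.31, 6.59 and 7.17 on the deficient arrays, against 7.21, 6.57 and 6.70 on the control arrays. There, deficient array 2 lay with the low controls, so the probe sets of this gene ordered the arrays differently. Whether the transporters differ from each other in their response was not tested.

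Slc17a6 varied across arrays beside markers of neighbouring tissue. The choroid plexus list was higher for 14 of 14 measured genes, with means of 7.62 to 8.56 on the deficient arrays and 5.76 to 7.73 on the control arrays, and control array 1 stood with the deficient arrays as it did for Slc17a6. Ttr, a defining gene of that epithelium, was at 14.77, 14.69 and 14.51 on the deficient arrays, against 14.49, 10.93 and 10.23 on the control arrays. Without control array 1 the difference of Slc17a6 was 0.57 (unadjusted p = 0.00421, adjusted p = 0.808, limma), without control array 3 it was 0.16, and with the choroid plexus list as a covariate it was -0.24. A list of 18 thalamus and habenula markers was higher for 11 and lower for 7, at 6.85 to 7.04 on the deficient arrays and 6.80 to 6.91 on the control arrays. Of these markers 12 lay above and 6 below the array median on all 6 arrays. Zic1, a zinc finger transcription factor on that list, was at 10.49, 9.83 and 9.09 on the deficient arrays, against 8.70, 8.65 and 8.46 on the control arrays, without overlap (difference 1.199, unadjusted p = 0.00409, adjusted p = 0.963, limma). The other markers of this list had differences from -0.18 (Tac2) to 0.35 (Cbln1), so Zic1 does not stand for the list. With the whole list as a covariate the difference of Slc17a6 was 0.09. Cajal-Retzius markers, from another Slc17a6-expressing cell type, were higher for 7 of 8, with means of 7.34 to 7.59 on the deficient arrays and 7.29 to 7.41 on the control arrays. Their differences ran from -0.02 (Lhx5) to 0.31 (Ebf3). Those of Trp73 and Lhx1, counted as higher, were only 0.002 and 0.009, and that of Reln was 0.08. The part of these tissues in the level of Slc17a6 was not tested beyond these fits, which leave few degrees of freedom.

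**Figure D2:**
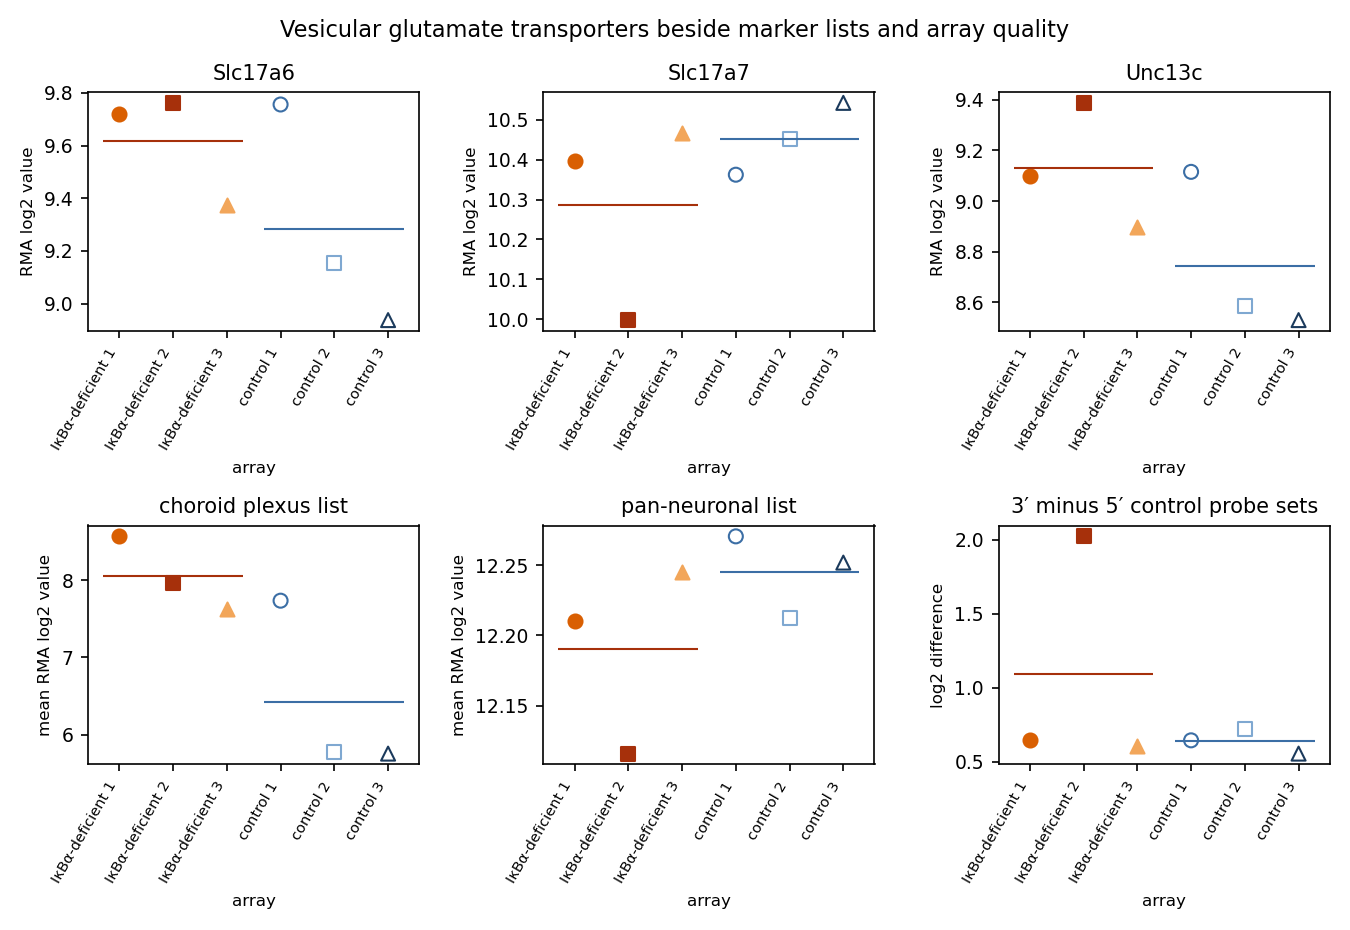
Values per array for the transporters Slc17a6 and Slc17a7, the priming factor Unc13c, the mean of the choroid plexus and pan-neuronal marker lists (RMA log2) and the mean 3′ minus 5′ gap of the control probe sets (log2 difference), with IκBα-deficient arrays at left as filled symbols, control arrays at right as open symbols and group means as lines. Control array 1 sits with the deficient arrays for Slc17a6, Unc13c and the choroid plexus list, and IκBα-deficient array 2 stands apart for Slc17a7, the pan-neuronal list and the 3′ minus 5′ gap; vertical axes differ and do not start at 0.

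SNARE genes were near level, with 3 of 10 higher and 7 lower, a median difference of -0.01 and 0 passing. The core complex consists of Snap25 and syntaxin on the plasma membrane and Vamp2 on the vesicle. Snap25 was at 13.98, 13.95 and 13.93 on the deficient arrays, against 13.94, 13.96 and 13.93 on the control arrays. Vamp2 was at 12.42, 12.47 and 12.36 on the deficient arrays, against 12.37, 12.42 and 12.39 on the control arrays. The groups overlapped in both genes, and the 95% intervals of the fold ran from 0.919 to 1.11 for Snap25 and from 0.920 to 1.12 for Vamp2. Differences were 0.01 and 0.02.

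Stx1a, syntaxin 1A, was at 11.75, 12.09 and 11.76 on the deficient arrays, against 11.83, 11.71 and 11.64 on the control arrays. Deficient array 2 alone was high. The difference of 0.14 ± 0.10 (SE, adjusted p = 0.963) was 0.03 without it, and -0.12 without probe sets whose code marks them as matching more than 1 transcript, which puts the other probe set of the gene in its place. Vamp1, a vesicle SNARE that partly replaces Vamp2 in some neurons, was at 10.15, 9.96 and 10.15 on the deficient arrays, against 10.27, 10.13 and 10.14 on the control arrays, with a difference of -0.10 ± 0.08 (SE) that was -0.03 without deficient array 2.

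Among the SNARE regulators, Cplx2, a complexin that clamps and promotes fusion, was at 12.80, 12.81 and 12.87 on the deficient arrays, against 12.85, 12.96 and 12.97 on the control arrays. Only control array 1 fell within the deficient range, and the difference was -0.10 ± 0.06 (SE, adjusted p = 0.963). Its second probe set was at 12.17, 12.10 and 11.97 on the deficient arrays, against 12.34, 12.21 and 12.40 on the control arrays, without overlap. That difference of -0.24 had an unadjusted p of 0.024 and an adjusted p of 0.985 among 34945 probe sets (limma). It was the 1 of 95 member probe sets with an unadjusted p under 0.05 (1.05%, against 3.82% of all single-symbol probe sets). The third probe set of Cplx2 had a difference of -0.19, with overlap. The paralogue Cplx1 differed by -0.02. Napa and Napb, SNAP adaptors of the disassembly machinery, differed by -0.09 and -0.005, and Napa by -0.01 without deficient array 2. The ATPase Nsf differed by -0.03, and Stxbp5, tomosyn, which sequesters syntaxin, by -0.005.

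**Figure D3:**
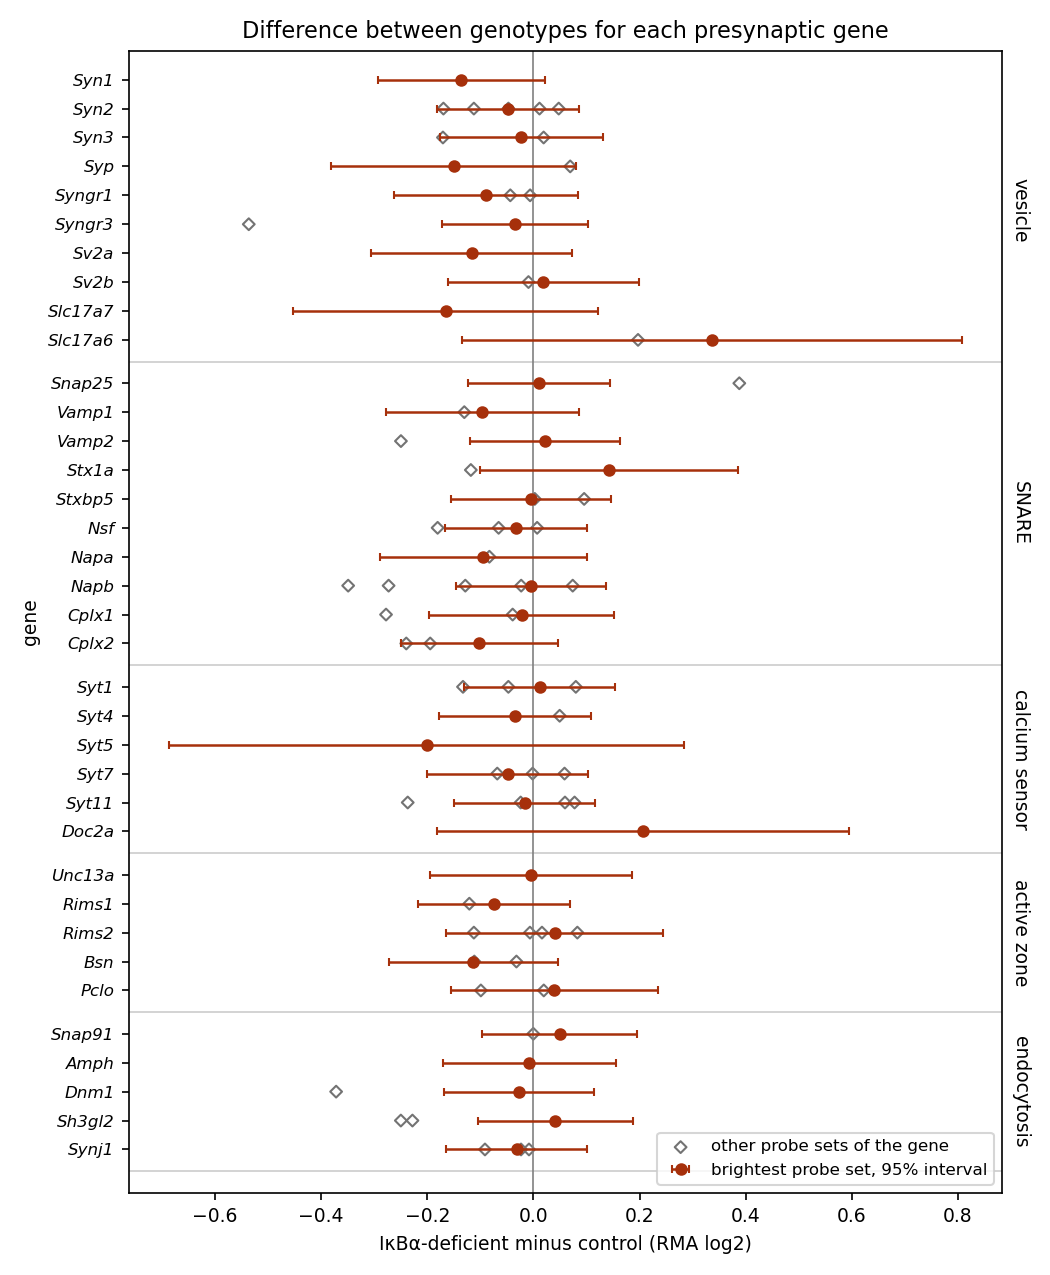
Difference between IκBα-deficient and control arrays (horizontal axis, RMA log2, positive when higher in deficient animals) for each presynaptic gene, grouped by role, with the 95% interval of the brightest probe set as a bar and other probe sets of the gene as open diamonds. All 36 intervals include 0, and the widest belong to Slc17a6, Syt5 and Doc2a.

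Calcium sensors were split, with 2 of 6 higher and 4 lower, a median difference of -0.03 and 0 passing. Syt1, the main sensor for synchronous release in the forebrain, was at 13.91, 14.02 and 13.95 on the deficient arrays, against 13.95, 13.92 and 13.97 on the control arrays. Its difference was 0.01, with an interval of the fold from 0.913 to 1.11. Syt7, a high-affinity sensor of asynchronous release and facilitation, was at 12.05, 12.17 and 12.15 on the deficient arrays, against 12.22, 12.17 and 12.12 on the control arrays, with a difference of -0.05. Syt4 and Syt11, synaptotagmins that do not trigger fast release, differed by -0.03 and -0.02.

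In both remaining sensors deficient array 2 decided the value. Syt5, a further vesicle synaptotagmin, was at 8.87, 8.12 and 9.04 on the deficient arrays, against 8.89, 8.86 and 8.88 on the control arrays. Deficient array 2 lay far below all others, and the difference of -0.20 ± 0.21 (SE) was 0.08 without it. Doc2a, a soluble calcium sensor linked to spontaneous and asynchronous glutamate release, was at 8.18, 8.70 and 8.06 on the deficient arrays, against 8.27, 8.12 and 7.93 on the control arrays. Here the same array was the highest, and the difference of 0.21 ± 0.17 (SE) was 0.01 without it.

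Active zone genes numbered 2 higher and 3 lower, with a median difference of -0.004 and 0 passing. Bsn, the giant scaffold bassoon, was at 11.40, 11.39 and 11.55 on the deficient arrays, against 11.56, 11.60 and 11.51 on the control arrays. The groups overlapped through deficient array 3, and the difference was -0.11 ± 0.07 (SE, adjusted p = 0.963). Rims1, which links vesicles to calcium channels, was at 11.22, 11.32 and 11.27 on the deficient arrays, against 11.32, 11.33 and 11.39 on the control arrays, with a difference of -0.07 ± 0.06 (SE). Pclo, piccolo, the relative of bassoon, was at 11.64, 11.81 and 11.77 on the deficient arrays, against 11.77, 11.77 and 11.56 on the control arrays, a difference of 0.04. Unc13a, a vesicle priming factor, differed by -0.004, with an interval of the fold from 0.874 to 1.14. Rims2, the paralogue of Rims1, differed by 0.04.

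Endocytosis genes numbered 2 higher and 3 lower, with a median difference of -0.007, every difference between -0.03 and 0.05 and 0 passing. With probe sets averaged per gene, 4 of 5 were lower and the range was -0.20 to 0.02. Snap91, the clathrin adaptor AP180, was at 12.90, 12.99 and 12.85 on the deficient arrays, against 12.87, 12.86 and 12.86 on the control arrays. Sh3gl2, endophilin A1, which bends membrane and recruits synaptojanin, was at 12.65, 12.75 and 12.71 on the deficient arrays, against 12.61, 12.66 and 12.71 on the control arrays. Synj1, the phosphatase synaptojanin that helps shed the clathrin coat, was at 13.35, 13.41 and 13.39 on the deficient arrays, against 13.40, 13.43 and 13.42 on the control arrays. All 3 genes had overlapping groups. Differences were 0.05, 0.04 and -0.03, the first and second being 0.01 and 0.02 without deficient array 2, and those of Dnm1, the neuronal dynamin, and Amph, amphiphysin, a dynamin partner, were -0.03 and -0.007. Of the members with an NF-κB consensus in the promoter shown above, Sh3gl2 was thus at 0.04 and Cplx2 at -0.10, and neither passed.

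Probe sets of the same gene gave a separate view of deficient array 2. The 36 members had 95 probe sets with a single symbol, 29 members had more than 1, and in 17 of these the probe sets differed in the sign of the genotype difference. On deficient array 2, 11 of 95 probe sets (11.6%) lay more than 0.5 below each of the other 5 arrays, beside 0 of 95 on every other array. Over all 34945 single-symbol probe sets the share on that array was 2.26%, and on each other array it was at most 0.112%. The 11 low probe sets belong to 9 genes, and only that of Syt5 is the brightest of its gene. In the other direction, 1 of 95 lay more than 0.5 above each other array on deficient array 2, beside 0.295% of all. It was the dimmer probe set of Snap25, at 7.77, 8.74 and 7.49 on the deficient arrays, against 7.49, 7.60 and 7.76 on controls.

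In several of the 9 genes with low probe sets the brightest probe set stayed with the other arrays. The dimmer probe set of Syngr3 was at 7.57, 6.03 and 7.72 on the deficient arrays, against 7.76, 7.52 and 7.65 on the control arrays, whereas its brightest was at 10.88, 10.92 and 10.93 on the deficient arrays, against 10.97, 10.90 and 10.96 on the control arrays. The dimmer probe set of Dnm1 was at 8.20, 6.89 and 8.42 on the deficient arrays, against 8.22, 8.17 and 8.23 on the control arrays. A probe set of Syt11 was at 10.46, 9.18 and 10.59 on the deficient arrays, against 10.36, 10.19 and 10.37 on the control arrays. Each of these showed the same array low and the 2 groups otherwise interleaved or close. Where these probe sets lie along the transcripts is stated in no label or file, and the part of the wide 3′ to 5′ gap of this array in their values was not tested.

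**Figure D4:**
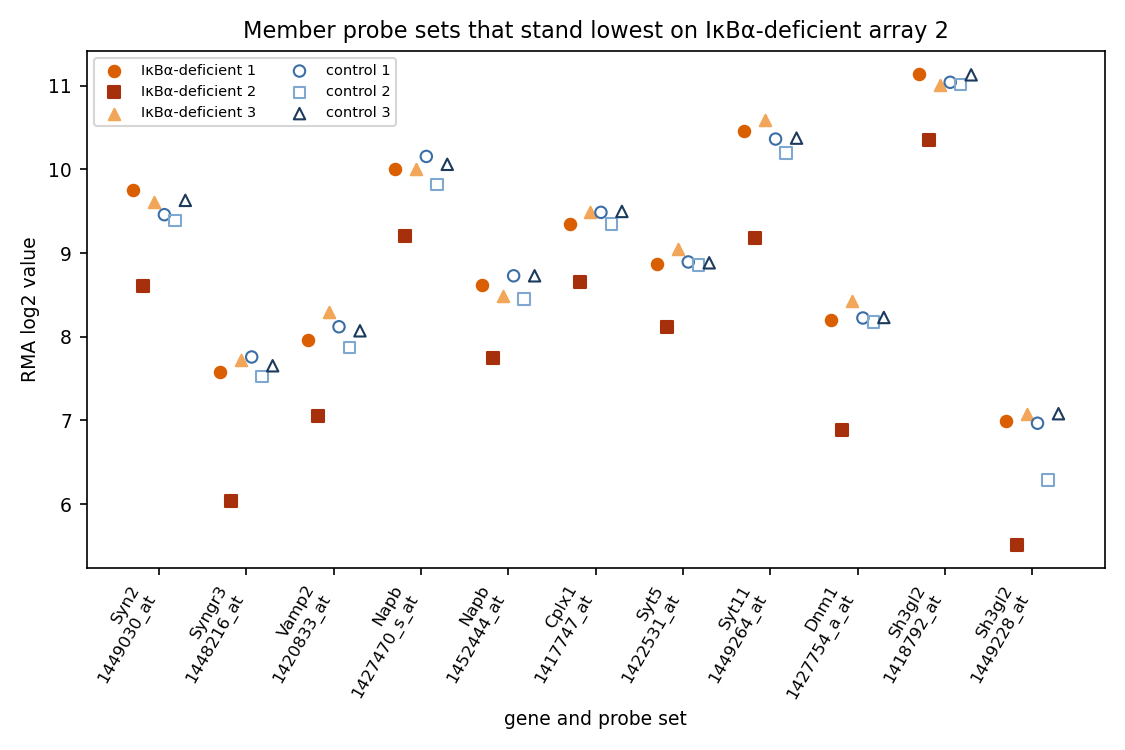
RMA log2 values on each array for the 11 member probe sets that lay more than 0.5 below every other array on IκBα-deficient array 2, with filled symbols for deficient and open symbols for control arrays. The square filled symbol of deficient array 2 is the lowest in each column, by up to 1.49 below the nearest array in Syngr3.

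Among the brightest probe sets, deficient array 2 was the lowest or highest of the 6 arrays for 22 of 36 members (61.1%). This held for 50.6% of all genes. The array was lowest for 10 members and highest for 12, beside 3297 and 5902 of all 18193 genes. Its median deviation from the control mean was -0.02 for the members and 0.04 for all genes, so beside all genes the members lay lower on it. The other arrays were extreme for 7 to 13 members each. With deficient array 2 left out, the differences of the members ranged from -0.10 to 0.27, and with the 3′ to 5′ gap as a covariate from -0.10 to 0.26, and 0 passed in either fit.

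Among other genes of the presynaptic terminal, 0 passed either. Of 78 listed genes 72 were measured, 30 higher and 42 lower, with a median difference of -0.02. An unadjusted p under 0.05 was reached by 3 of them, 2 higher and 1 lower, or 4.17%, where 4.71% of all genes did so, and 0 passed after adjustment (limma). Groups did not overlap for 11 of 72, 5 higher and 6 lower, or 15.3%, against 9.76% of all genes.

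The 3 with an unadjusted p under 0.05, a share near that of all genes, were Syngr2, Syt9 and Syt3. Syngr2, a synaptogyrin found mainly outside neurons, was at 8.10, 8.15 and 8.005 on the deficient arrays, against 7.94, 7.84 and 7.94 on the control arrays, without overlap (difference 0.18, unadjusted p = 0.031, adjusted p = 0.963). Syt9, a fast calcium sensor of limbic and striatal neurons, was at 7.37, 7.37 and 6.98 on the deficient arrays, against 7.10, 6.86 and 6.90 on the control arrays, with overlap (difference 0.29, unadjusted p = 0.046, adjusted p = 0.963). Syt3, a high-affinity synaptotagmin, was at 8.06, 7.77 and 8.09 on the deficient arrays, against 8.20, 8.26 and 8.19 on the control arrays, without overlap (difference -0.24, unadjusted p = 0.034, adjusted p = 0.963, and -0.14 without deficient array 2).

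Further genes with small p in their role group did not reach that level. Unc13c, a priming factor of the Unc13a family, was at 9.10, 9.39 and 8.90 on the deficient arrays, against 9.12, 8.59 and 8.53 on the control arrays, so that control array 1 stood with the deficient arrays as it did for Slc17a6. Its difference was 0.39 ± 0.18 (SE), 0.26 without deficient array 2 and -0.04 with the choroid plexus covariate. Rimbp2, which ties calcium channels to RIM proteins, differed by -0.16 without overlap, Stxbp5l, a tomosyn relative, by -0.09 without overlap, and Dnm2, the widely expressed dynamin, by -0.16 without overlap, a value that was -0.08 without deficient array 2. Bin1, an amphiphysin relative, was at 9.77, 9.11 and 9.86 on the deficient arrays, against 9.88, 9.79 and 9.86 on the control arrays, so its difference of -0.26 was -0.03 without deficient array 2. Sv2c differed by -0.18 at a dim level of 4.14 to 4.49, and Stx6 by 0.07. Without deficient array 2 these were -0.29 and 0.03.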

How the data were processed

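Hippocampal total RNA of 6 mice was measured on Affymetrix arrays. The submitters' processing notes name RMA as the tool behind the log2 values deposited by the authors. RMA corrects the background, quantile-normalizes the arrays and summarises the probes of each probe set. Its version is not given in the sources used here. RMA compresses differences between low values, and quantile normalization hides a change shared by most genes. Precision is limited by how few arrays there are.

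Of 45101 probe sets, 64 control probe sets were left out. By GEO's platform annotation 34945 had 1 gene symbol, 932 several and 9160 none, and those with 1 symbol gave 18193 genes by the highest mean over 6 arrays. A linear model on genotype alone was fitted to every gene (R 4.3.3 and limma 3.58.1, moderated two-sided test), with p adjusted by Benjamini-Hochberg over all genes and called under 0.05. Every difference is the IκBα-deficient mean minus the control mean. The code was tested on simulated data.

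The members and gene lists were chosen with earlier results of these data known. Values per array are given for the 3 members of each role with the smallest p, members without overlap and textbook members, and for the 2 smallest p per role among other presynaptic genes. Other probe sets and markers shown were chosen after their values were seen. The fit was repeated without each array in turn, with a block for the repeat number, and with other scalings, probe set choices and variance models, a filter on dim genes and 3 covariates. Leaving out deficient array 2 and control array 1 together was added after seeing the data.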

Additional observations from a re-analysis of the deposited data

How the results depend on the processing

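No member of the presynaptic list and no other presynaptic gene passed an adjusted p of 0.05 in any of 21 alternatives, and the smallest adjusted p of any member was 0.705 (limma). Leaving out 1 array at a time gave 22 to 25 lower members, a median difference of -0.037 to -0.0069, 2 to 10 members without overlap (10 without control array 1, 27.8%, beside 19.2% of all genes, since fewer arrays separate more easily), 0 to 1 members with an unadjusted p under 0.05, and 0 to 5 calls among all genes. Without control array 1 the calls were Ttr, Clic6 and Kcne2 of the choroid plexus list, Ecrg4 and Sulf1, and without deficient array 3 the call was Nfkbia. Other presynaptic genes had 35 to 47 lower, with a median of -0.030 to 0.00091. Without both doubted arrays, 14 members did not overlap (38.9%, beside 32.7% of all genes).

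Centring on pan-neuronal markers gave 11 lower members (median 0.030) and 21 lower other presynaptic genes (median 0.038). It left 1 member without overlap (2.78%, beside 11.2% of all genes). Members without overlap numbered 5 with median centring (13.9%, beside 9.15% of all genes). With probe sets averaged per gene they numbered 4 (11.1%, beside 9.07%). The median difference of the members was -0.050 with probe sets averaged, -0.11 with the probe set of widest spread (other presynaptic genes -0.065), -0.040 with array weights and -0.0082 with the choroid plexus covariate. With the repeat number as a block, 1 member had an unadjusted p under 0.05, Slc17a6 (0.34, unadjusted p = 0.0344), and no adjusted call changed. Deviations from group means correlated at 0.061, 0.24 and 0.20 between same-numbered arrays. Between differently numbered arrays they ran from -0.27 to 0.14, the highest being deficient array 1 with control array 3. The design text speaks of pairs, but no label says that a repeat number marks a litter. The main fit therefore has no block, and whether the numbers pair the animals was not settled. Such a p was also reached without shared-code probe sets (Cplx2), with trend and robust settings (Syn1) and without both doubted arrays (Slc17a6 at 0.50), 1 member in each. Under median centring, averaged probe sets, the widest spread, shared-code probe sets left out, dim genes left out, trend and robust settings, array weights and the thalamus covariate, 1 gene was called, Nfkbia.

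Signs turned in 42 of 627 gene values, over 15 of 30 named genes. With arrays left out singly, the ranges were -0.0032 to 0.025 for Snap25, -0.39 to 0.077 for Syt5, -0.0048 to 0.048 for Vamp2, -0.019 to 0.035 for Syt1 and -0.033 to 0.089 for Pclo. Centring on neurons gave Syt7 0.0062 and Synj1 0.023. Averaged probe sets gave Pclo -0.013, Sh3gl2 -0.15, Vamp2 -0.11, Syt1 -0.022 and Stx6 -0.073. The widest spread gave Syp 0.069, Syt7 0.059, Pclo -0.099, Snap91 -0.00019, Sh3gl2 -0.25, Vamp2 -0.25, Syt1 -0.047 and Stx6 -0.36. Without shared-code probe sets, Stx1a was -0.12 and Stx6 -0.022. Array weights gave Pclo -0.019 and Syt1 -0.010. The choroid plexus covariate gave Slc17a6 -0.24, Pclo -0.00030, Snap25 -0.0012 and Unc13c -0.040. The thalamus covariate gave Syt5 0.078, Snap91 -0.00022, Snap25 -0.00078, Vamp2 -0.0078 and Syt1 -0.012. The 3′ to 5′ gap covariate gave Syt5 0.068, Vamp2 -0.0051 and Syt1 -0.016. Without both doubted arrays, Vamp1 was 0.011, Syt5 0.084, Sh3gl2 -0.0079, Vamp2 -0.015 and Syt1 -0.017. The cause of these turns and of the other shifts was not tested.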
